A study of Mus musculus with 6 samples.

Results

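The adhesion and homing receptor genes described here are 35 genes that encode integrin chains, the selectin ligand PSGL-1, the hyaluronan receptor CD44, CD47, adhesion molecules of the immunoglobulin family, chemokine receptors and sphingosine 1-phosphate receptors. They were chosen by gene symbol, and all 35 were on the array. Together they had 80 probe sets, and the probe set of highest mean intensity stands for each gene, as for the 18194 genes measured in all. RNA came from LGMP, flow-sorted mouse bone marrow progenitors of an MLL-AF9 leukaemia model that were lineage-negative, cKit+, Sca1-, YFP+, CD34+ and FcgRII/III+. All donors carried MLL-AF9 and ROSAwt/CreERT2. The WT group (n = 3) had EF1αwt/wt and was male by the labels, and the N1-IC group (n = 3) had EF1αwt/lsl-N1-IC and was female, so genotype and sex cannot be told apart. N1-IC is the intracellular domain of the Notch1 receptor. MLL-AF9, a fusion oncogene of acute myeloid leukaemia, came with a YFP marker, and CreERT2 is a recombinase that works only with tamoxifen. In both groups, 50000 infected cKit+ cells had been given with 250000 wild-type support marrow cells to irradiated recipients of 12 weeks. Tamoxifen (0.2 mg per g of body weight) was injected 2 times starting 4 weeks later, and cells were taken 6 days after the last injection. How many recipients make up a sample is not given in the labels, so the p-values rest on the spread among these arrays alone.

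Integrins are pairs of an alpha and a beta chain on the cell surface that bind matrix or partner receptors on other cells once signals inside the cell switch them to an active shape. Selectin ligands let white blood cells roll along vessel walls, integrins and their immunoglobulin-type partners stop them, and chemokine receptors guide them, with Cxcr4 holding progenitors in the marrow niche. Sphingosine 1-phosphate, a lipid more abundant in blood than in tissue, draws cells out through some of its receptors and holds them back through others.

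The genes of the sort gate that were measured (Kit, Cd34, Fcgr3 and Fcgr2b) lay above the array medians (5.63 to 5.67 log2 units) on all 6 arrays. All 4 had a lower mean in N1-IC, but Kit (log2 fold change -0.0028), Fcgr3 (-0.25) and Fcgr2b (-0.16) had overlapping groups. Cd34 was lower without overlap, at 11.33 to 11.69 in WT and at 10.05 to 11.28 in N1-IC. Of 11 stromal and endothelial markers 9, and of 9 T lineage markers 5, lay below the median on all 6. A pair of WT arrays stood apart in markers of other cells. The mean of 11 mature neutrophil markers was 7.01 log2 units in WT replicate 1 and 9.32 to 10.23 on the other 5 arrays. The mean of 15 erythroid and megakaryocyte markers was 8.17 in WT replicate 2 and 6.05 to 6.58 elsewhere. Their part in the results below was not tested, and values without these arrays are given beside several results. In sorted bulk RNA, fewer cells of a type and less RNA per cell cannot be told apart.

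The genes with the clearest separation between genotypes were Itgb7, Itga1, Ccr1, Selplg and S1pr4, all lower in N1-IC, and Itga9, which was higher. Itgb7, Itga1 and Itga9 are integrin chains, Ccr1 is a chemokine receptor, Selplg a selectin ligand and S1pr4 a lipid receptor. The adhesion molecule Vcam1 (lower) and the lipid receptor S1pr2 (higher) also separated. Their unadjusted limma p rose as high as 0.0614 and 0.0605 with a single array left out. None of the 35 genes passed the test over all genes. The smallest adjusted p of a member was 0.618 in limma, with 1 of 18194 genes (0.00550%) called. At an unadjusted limma p under 0.05, 10 of the 35 genes (28.6%) were found, 3 higher and 7 lower, against 7.98% of all genes (4.14% higher and 3.84% lower). The 3 arrays of each genotype did not overlap for 11 genes (31.4%), 4 higher and 7 lower, against 14.8% of all genes (8.32% higher and 6.52% lower). The genes were chosen with earlier results of these data known, so these shares only describe them and do not test an excess. In a fit restricted to the brighter 9097 genes, 8 of 25 members (32%) had an unadjusted p under 0.05, against 9.18% of those genes. The median log2 fold change of the 35 genes was 0.04 and that of all genes 0.01, and the median size without sign was 0.30 and 0.14. With arrays centred on their medians, 5 members were higher and 6 lower at an unadjusted p under 0.05, and the shares of all genes moved the same way, to 5.49% and 2.94%.

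**Figure D1:**
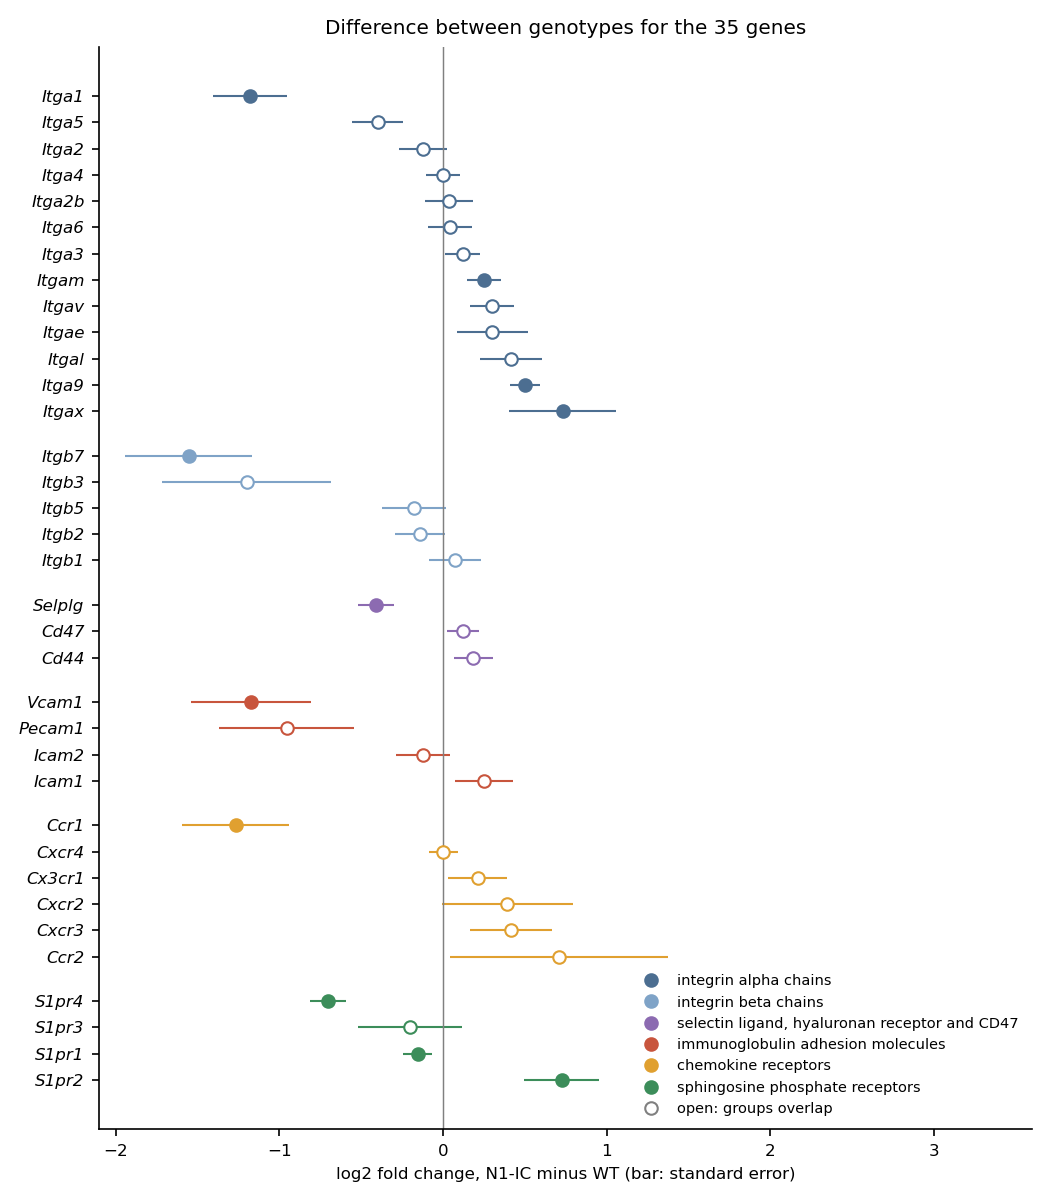
Log2 fold change (N1-IC minus WT, limma) of all 35 genes by role, with bars of 1 standard error and filled points where the 3 arrays of each genotype did not overlap. Itgb7, Ccr1, Itgb3, Itga1 and Vcam1 lie furthest to the left, between -1.55 and -1.17, and Itgax and S1pr2 furthest to the right, at 0.73 each.

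Of the 13 integrin alpha chains 10 had a mean above WT and 3 a mean below it, with a median log2 fold change of 0.12. Itga1, which pairs with the Itgb1 chain in a collagen receptor, was the alpha chain with the largest difference. Its log2 values were 12.94, 12.45 and 12.15 in WT replicates 1 to 3 and 11.28, 11.15 and 11.57 in N1-IC. All 3 N1-IC values lay below the WT values, and WT replicate 1 was the highest. The log2 fold change was -1.18 ± 0.22 (standard error; limma unadjusted p of 0.00172, adjusted p of 0.618). Its other probe set gave 10.79, 9.78 and 9.23 in WT and 7.94, 6.85 and 8.52 in N1-IC, again without overlap and with a log2 fold change of -2.16. Without WT replicate 1, the array low in neutrophil markers, the fold change of Itga1 was -0.97. Itga2, another collagen-binding alpha chain, is the next gene to Itga1 on chromosome 13 and lay at 4.20 to 4.72, below the array medians on all 6 arrays. Whether such low values exceed background is unknown, since detection calls were not used here.

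Itga9, a chain known to bind tenascin and osteopontin, lay near the array medians, at 5.59, 5.45 and 5.51 log2 units in WT and at 5.98, 6.10 and 5.97 in N1-IC. Every N1-IC value was above the WT values and the spread within a genotype was small, at 0.0705 and 0.0751 (SD, n = 3). Its log2 fold change was 0.50 ± 0.09 (limma unadjusted p of 0.00126, adjusted p of 0.618). All 3 probe sets had that sign, the other 2 with overlapping groups.

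Itgam, Itgax and Itgal, the alpha chains among the members that pair with the leukocyte chain Itgb2, all had higher means. Itgam, the CD11b chain of mature myeloid cells, lay at 6.99, 7.12 and 6.93 in WT and at 7.33, 7.34 and 7.14 in N1-IC. N1-IC replicate 3 and WT replicate 2 nearly touched. Its log2 fold change was 0.25 ± 0.10 (limma unadjusted p of 0.0488, adjusted p of 0.618), and that p was between 0.033 and 0.136 with any single array left out. Itgax, the CD11c chain of dendritic cells and some macrophages, is the neighbour of Itgam on chromosome 7. It lay at 4.86, 5.31 and 4.68 in WT and at 5.34, 5.32 and 6.38 in N1-IC. The groups did not overlap, WT replicate 2 and N1-IC replicates 1 and 2 were nearly level, and N1-IC replicate 3 stood above the rest and was the only array on which the gene exceeded the array median. Of 10 dendritic markers 6 had a higher mean in N1-IC, among them H2-Aa (0.80) and Cd74 (1.65) without overlap. The other 4 dendritic markers had a lower mean, Siglech (-0.13) without overlap and Irf8 (-0.48), Bst2 (-0.38) and Flt3 (-0.36) with overlapping groups. Of 10 monocyte and macrophage markers 6 had a higher mean, among them Mrc1 (1.36), C1qa (0.45) and C1qc (0.40) without overlap. The other 4 had a lower mean, among them Adgre1 (-0.57), Cd68 (-0.46) and Csf1r (-0.35). C1qa and C1qc lay below the array medians on all 6 arrays. The part of these dendritic, monocyte and macrophage markers in the values of Itgax was not tested. The log2 fold change was 0.73 ± 0.33 (limma unadjusted p of 0.0648), and 0.38 without N1-IC replicate 3. Itgal, the CD11a chain of LFA-1, had WT values of 8.79 to 9.45 and overlapping N1-IC values of 9.32 to 9.59 (log2 fold change 0.42 ± 0.19). Without WT replicate 2 its 3 N1-IC values lay above the remaining WT values (0.62). Their shared partner Itgb2 lay at 10.37 to 10.79 on the WT arrays and at 10.26 to 10.61 in N1-IC (-0.14 ± 0.15).

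The 250 bases before the RefSeq start of Itgam (GRCm38.p6, chr7:128062390-128062639, plus strand) are shown because this gene separated the genotypes and its window holds 2 matches to GAGGAA, the core letters of the PU.1 motif, in capitals on either strand. PU.1 is the transcription factor of myeloid development.

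Itgam: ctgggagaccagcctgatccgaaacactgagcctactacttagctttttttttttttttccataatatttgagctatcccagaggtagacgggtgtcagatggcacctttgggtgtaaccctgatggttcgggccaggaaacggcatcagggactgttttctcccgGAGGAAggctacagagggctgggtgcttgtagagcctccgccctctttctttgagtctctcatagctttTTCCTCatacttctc

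Itga5, the fibronectin receptor chain, had log2 values of 10.53, 10.31 and 10.08 in WT and 9.75, 9.85 and 10.13 in N1-IC. N1-IC replicate 3 lay just above WT replicate 3, and the log2 fold change was -0.40 ± 0.16 (limma unadjusted p of 0.0433, adjusted p of 0.618), and -0.29 without WT replicate 1 (unadjusted p of 0.123). Its probe sets disagreed, with 2 of 4 lower and the other 2 at 0.26 and 0.38, and the mean of its probe sets gave 0.01. Itga4, the chain of the VCAM1-binding integrin VLA-4, lay at 11.82 to 12.04 on the WT arrays and at 11.81 to 12.02 in N1-IC (0.00 ± 0.11). Itga6, a laminin receptor chain, lay at 12.08 to 12.48 and 12.32 to 12.44 (0.04 ± 0.13). Itgav, the vitronectin receptor chain, lay at 11.82 to 12.24 and 12.19 to 12.37 (0.30 ± 0.14), and 2 of its 5 probe sets had that sign. Itga3, also a laminin receptor chain, lay at 6.49 to 6.79 and 6.74 to 6.85 (0.12 ± 0.11).

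Itga2b, the platelet chain CD41 that also marks early progenitors, lay at 6.42 to 6.86 on the WT arrays and at 6.51 to 6.77 in N1-IC. It was at 6.48 in WT replicate 2, the array with the highest mean of erythroid and megakaryocyte markers. Itgae, the CD103 chain of mucosal lymphocytes and dendritic cells, lay below the array medians on all 6 arrays, at 4.56 to 4.68 in WT and at 4.46, 5.30 and 5.05 in N1-IC. Its other probe set, at 3.69 to 4.13 on the WT arrays and at 4.39 to 4.97 in N1-IC, did not overlap.

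**Figure D2:**
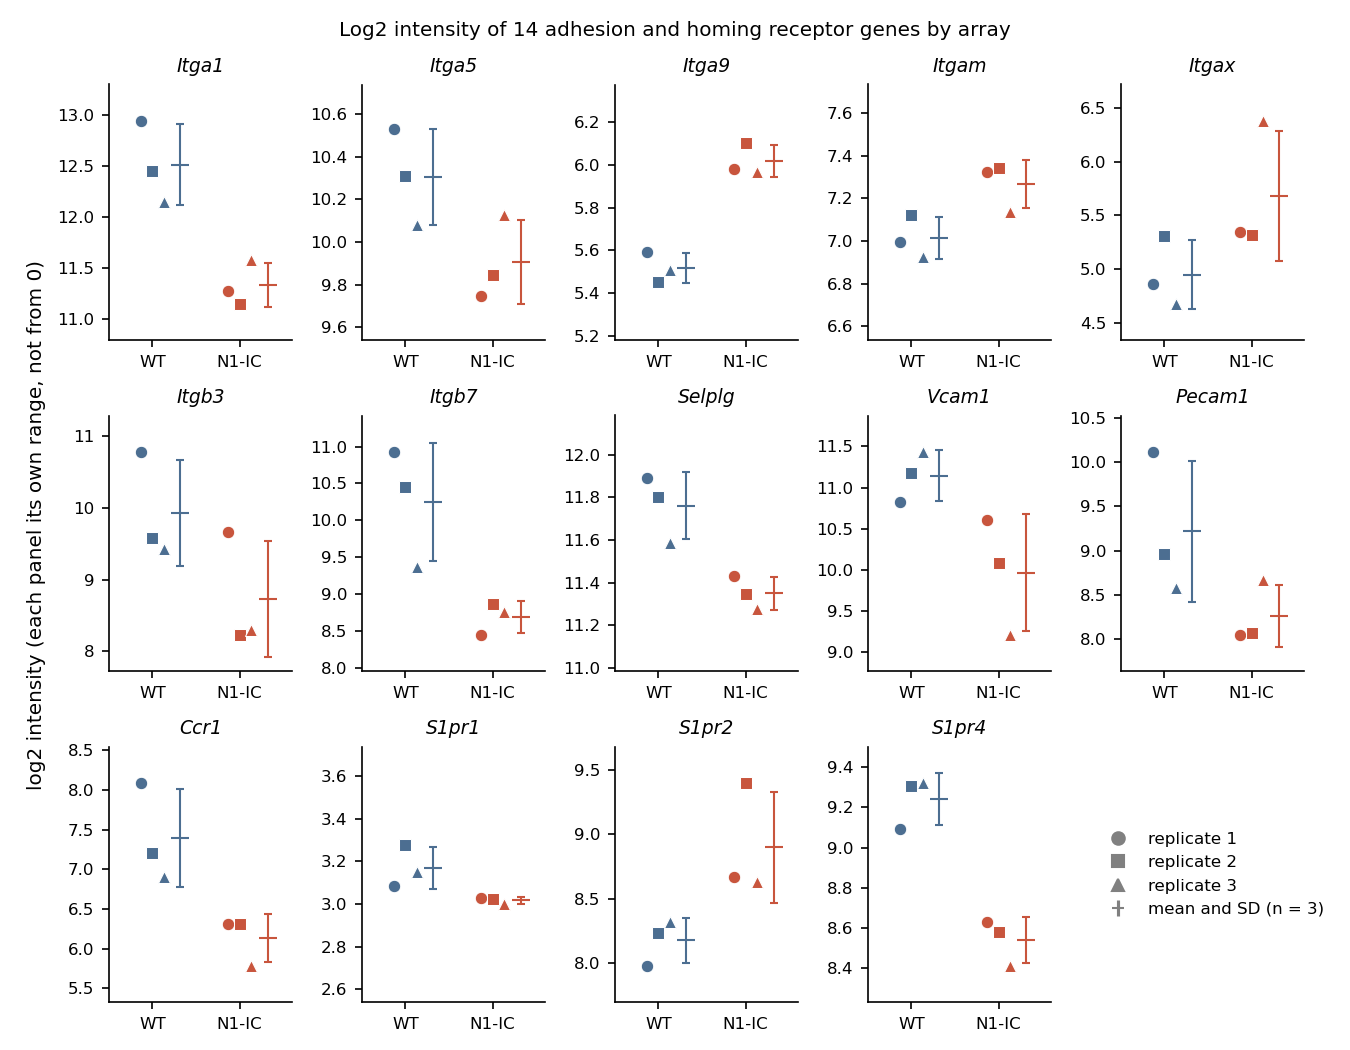
Log2 intensity of the 14 genes given in full, by genotype, with a symbol for each replicate and the mean with SD (n = 3) to its right; each panel has its own axis range that does not start at 0. N1-IC points lie wholly below WT points for Itga1, Itgb7, Selplg, Vcam1, Ccr1, S1pr1 and S1pr4 and wholly above for Itga9, Itgam, Itgax and S1pr2.

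Of the 5 integrin beta chains 4 had a lower mean in N1-IC, with a median log2 fold change of -0.18. Itgb7, which pairs with Itga4 or Itgae and binds the gut and marrow adhesion molecule MAdCAM-1, had the largest difference of all 35 genes. Its log2 values were 10.93, 10.45 and 9.38 in WT and 8.45, 8.87 and 8.76 in N1-IC. The groups did not overlap, and WT spread more (SD 0.793) than N1-IC (SD 0.217). The log2 fold change was -1.55 ± 0.39 (limma unadjusted p of 0.0067, adjusted p of 0.618) and stayed between -1.99 and -1.22 when any single array was left out. Its partner chains were at 0.00 (Itga4) and 0.30 (Itgae), and a difference between chains was not tested.

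Itgb3, which pairs with Itgav and Itga2b, had values of 10.78, 9.57 and 9.43 in WT and 9.67, 8.23 and 8.29 in N1-IC. In both genotypes replicate 1 was the highest, and the groups overlapped through N1-IC replicate 1. Its log2 fold change was -1.20 ± 0.52 (limma unadjusted p of 0.0576), and -0.77 without WT replicate 1. The other probe set of Itgb3, at 4.61 to 5.14 on the 6 arrays, gave -0.09. Itgb5, another partner of Itgav, lay at 8.19 to 8.89 on the WT arrays and at 8.23 to 8.49 in N1-IC (-0.18 ± 0.20). Itgb1, the partner of most alpha chains, lay at 9.66 to 10.13 and 9.74 to 10.08 (0.07 ± 0.16).

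The start region of Itgb7 (GRCm38.p6, chr15:102231936-102232185, minus strand) is shown as that of the gene with the largest difference. It holds no match on either strand to TGGGAA (the core of the site bound by RBPJ, the DNA-binding partner of the Notch intracellular domain) or to GAGGAA.

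Itgb7: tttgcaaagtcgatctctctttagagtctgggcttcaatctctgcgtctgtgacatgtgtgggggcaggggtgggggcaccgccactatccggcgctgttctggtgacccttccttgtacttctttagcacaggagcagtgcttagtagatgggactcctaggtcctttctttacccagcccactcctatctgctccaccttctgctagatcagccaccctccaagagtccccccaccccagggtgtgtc

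Selplg encodes PSGL-1, the main selectin ligand of leukocytes. Its log2 values were 11.89, 11.80 and 11.59 in WT and 11.43, 11.35 and 11.28 in N1-IC. Every N1-IC value was below the WT values, with a log2 fold change of -0.41 ± 0.11 (limma unadjusted p of 0.00958, adjusted p of 0.618). Fut7, the fucosyltransferase that makes PSGL-1 able to bind selectins, had a log2 fold change of -0.39 ± 0.18, and the tyrosine sulfotransferase Tpst1 one of -0.58 ± 0.25, both with overlapping groups. Cd44, the hyaluronan receptor, lay at 12.27 to 12.63 on the WT arrays and at 12.57 to 12.66 in N1-IC (0.19 ± 0.12). Cd47, the surface protein that signals against phagocytosis, lay at 13.02 to 13.24 and 13.19 to 13.30 (0.12 ± 0.10).

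Of the 4 adhesion molecules of the immunoglobulin family 3 had a lower mean. Vcam1, the partner of VLA-4 that stromal cells and also some myeloid progenitors and macrophages carry, had log2 values of 10.82, 11.18 and 11.43 in WT and 10.61, 10.08 and 9.21 in N1-IC. The groups did not overlap, with WT replicate 1 and N1-IC replicate 1 nearest to each other. The log2 fold change was -1.17 ± 0.36 (limma unadjusted p of 0.0175, adjusted p of 0.618). The other 2 probe sets gave -0.92 with overlapping groups and -0.82 with separate groups. The mean of the 10 monocyte and macrophage markers lay between 7.68 and 7.99 on the 6 arrays. Csf1r (-0.35), Adgre1 (-0.57) and Cd68 (-0.46) were among the 4 with a lower mean in N1-IC. Mrc1 (1.36) was among the 6 with a higher one. Of the 11 stromal and endothelial markers 7 had a lower mean, and Pdgfrb, which lay above the array medians on all 6 arrays, had -0.82 ± 0.30 without overlap. Their part in the values of Vcam1 was not tested.

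Pecam1, the CD31 molecule of leukocyte and endothelial junctions, lay at 10.11, 8.96 and 8.58 in WT and at 8.05, 8.07 and 8.67 in N1-IC. N1-IC replicate 3 lay within the WT range and WT replicate 1 well above the rest. Its log2 fold change was -0.95 ± 0.41 (limma unadjusted p of 0.0588) and -0.50 without WT replicate 1. The endothelial markers Cdh5 and Kdr lay at 3.08 to 3.87 and 3.73 to 4.30, below the array medians on all 6 arrays. Of the same marker list, Pdgfrb was highest in WT replicate 1 (8.75) and Col1a1 in WT replicate 3 (6.67). The mean of the 11 stromal and endothelial markers was 4.60 in WT replicate 1 and 4.35 to 4.66 elsewhere. Their part in the values of Pecam1 was not tested. Icam2, a partner of LFA-1, lay at 11.03 to 11.55 on the WT arrays and at 10.96 to 11.16 in N1-IC (-0.12 ± 0.17). Icam1, an inducible partner of LFA-1 and Mac-1, lay at 7.97 to 8.47 and 8.33 to 8.76 (0.25 ± 0.18).

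Of the 6 chemokine receptors 5 had a higher mean in N1-IC, all 5 with overlapping groups, and Ccr1 had a lower mean. Ccr1, a receptor for inflammatory chemokines such as Ccl3 and Ccl5 on myeloid cells, had log2 values of 8.09, 7.21 and 6.90 in WT and 6.30, 6.31 and 5.78 in N1-IC. All 3 N1-IC values lay below the WT values, and WT replicate 1 was again the highest. The log2 fold change was -1.27 ± 0.33 (limma unadjusted p of 0.00772, adjusted p of 0.618) and -0.92 without WT replicate 1. The other probe set had -1.45, and there WT replicate 3 (5.38) lay below N1-IC replicates 1 and 2 (5.55 and 5.42).

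Ccr2, the receptor of monocytes for Ccl2, lies 2 protein-coding genes from Ccr1 on chromosome 9. Its log2 values were 8.57, 11.03 and 9.79 in WT and 10.75, 11.07 and 9.69 in N1-IC, the widest range of any of the 35 genes but Itgb3, with groups that overlapped. The log2 fold change was 0.71 ± 0.67, and 0.10 without WT replicate 1. Cxcr4, the receptor for the niche chemokine Cxcl12, lay at 13.13 to 13.28 on the WT arrays and at 13.16 to 13.28 in N1-IC (0.00 ± 0.09), the narrowest range of the 35 genes. Cx3cr1, the fractalkine receptor of monocytes, lay at 8.64 to 9.13 and 8.89 to 9.38 (0.21 ± 0.18).

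Cxcr2, the neutrophil receptor for Cxcl1 and Cxcl2, lay at 5.08, 5.42 and 5.97 in WT and at 6.70, 5.35 and 5.60 in N1-IC, with N1-IC replicate 1 above the rest (0.39 ± 0.40). Cxcr3, an X-linked receptor of activated lymphocytes, lay below the array medians on all 6 arrays, at 4.04 to 5.07 and 4.95 to 5.01 (0.41 ± 0.25, and 0.15 without WT replicate 1). The start region of Ccr1 (GRCm38.p6, chr9:123968693-123968942, minus strand) is shown because Ccr1 alone of these receptors separated the genotypes. It holds 1 match to GAGGAA, in capitals, 129 bases before the start, and none to TGGGAA.

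Ccr1: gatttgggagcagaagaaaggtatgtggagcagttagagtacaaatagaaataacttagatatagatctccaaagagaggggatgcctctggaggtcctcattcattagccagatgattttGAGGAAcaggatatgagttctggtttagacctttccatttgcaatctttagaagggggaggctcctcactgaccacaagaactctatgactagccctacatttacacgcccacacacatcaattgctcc

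The sphingosine 1-phosphate receptors differed in sign. S1pr4, a receptor found mainly on blood cells, had log2 values of 9.09, 9.31 and 9.32 in WT and 8.63, 8.58 and 8.41 in N1-IC. The groups lay apart by more than the range of either, and the log2 fold change was -0.70 ± 0.11 (limma adjusted p of 0.618). Its unadjusted limma p of 0.000625 was the smallest of the 35 genes, and it stayed between 0.000794 and 0.00314 with any single array left out. S1pr2, the receptor known to hold cells back from sphingosine 1-phosphate, had values of 7.98, 8.23 and 8.32 in WT and 8.67, 9.40 and 8.63 in N1-IC. Every N1-IC value was above the WT values and N1-IC replicate 2 was the highest, with a log2 fold change of 0.73 ± 0.23 (limma unadjusted p of 0.0188, adjusted p of 0.618). Without N1-IC replicate 2 it was 0.48, and its other probe set gave 0.19 with overlapping groups.

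S1pr1, the receptor that draws lymphocytes into blood, lay at 3.08, 3.28 and 3.15 in WT and at 3.03, 3.02 and 3.00 in N1-IC. The groups did not overlap, but on all 6 arrays it lay below the lower quartile of probe sets (3.86 to 3.91). Its log2 fold change of -0.15 ± 0.09 is not read as a change in expression. S1pr3, the receptor of heart and vessel cells, lay at 8.97 to 9.90 and 8.90 to 9.76 (-0.20 ± 0.32). The start regions of S1pr2 (GRCm38.p6, chr9:20976794-20977043, minus strand) and S1pr4 (GRCm38.p6, chr10:81500138-81500387, minus strand) are shown side by side because these receptors of the same lipid separated the genotypes in opposite directions. Neither holds TGGGAA or GAGGAA, and the shares of G and C are 59.2% and 38.8%.

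S1pr2: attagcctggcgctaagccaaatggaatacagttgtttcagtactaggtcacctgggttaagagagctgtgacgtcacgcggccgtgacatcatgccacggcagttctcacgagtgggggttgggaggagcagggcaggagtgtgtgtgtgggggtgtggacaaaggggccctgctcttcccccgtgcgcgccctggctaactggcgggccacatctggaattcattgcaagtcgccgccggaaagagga
S1pr4: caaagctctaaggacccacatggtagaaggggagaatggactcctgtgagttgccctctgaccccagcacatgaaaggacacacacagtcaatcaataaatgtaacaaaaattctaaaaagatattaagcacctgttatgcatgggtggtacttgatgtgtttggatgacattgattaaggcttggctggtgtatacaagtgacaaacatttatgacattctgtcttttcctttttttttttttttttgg

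Start regions were given for 25 of the 35 genes in the RefSeq table, with 2 each for Itga3 and Cd47, of which the one listed first was used, as for all genes. TGGGAA was found in 4 of them (16%), namely Cd44, Cx3cr1, Cxcr2 and Itga2b, against 21.5% of 27025 start regions of that length, and each of the 4 genes had overlapping groups. GAGGAA was found in 10 (40%), or in 11 with the other window of Itga3, against 23.1%, and TTGCNNAA, the paired half-sites of C/EBP factors, in 0, against 9.55%. No base of the 27 windows lay in 2 matches. These letters describe the windows only, and binding was not measured.

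Some genes of the group lie close together, and differences within such pairs were not tested. Beside the adjacent pairs of Itga1 with Itga2 and of Itgam with Itgax, S1pr2 and Icam1 lie on chromosome 9 with 1 protein-coding gene between them and had 0.73 and 0.25. Vcam1 and S1pr1 lie on chromosome 3 with 3 genes between them and had -1.17 and -0.15. Icam2 and Pecam1 lie on chromosome 11 with 2 genes between them and had -0.12 and -0.95. Each of these pairs had log2 fold changes of the same sign, and Ccr1 with Ccr2 (-1.27 and 0.71) had opposite ones.

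**Figure D3:**
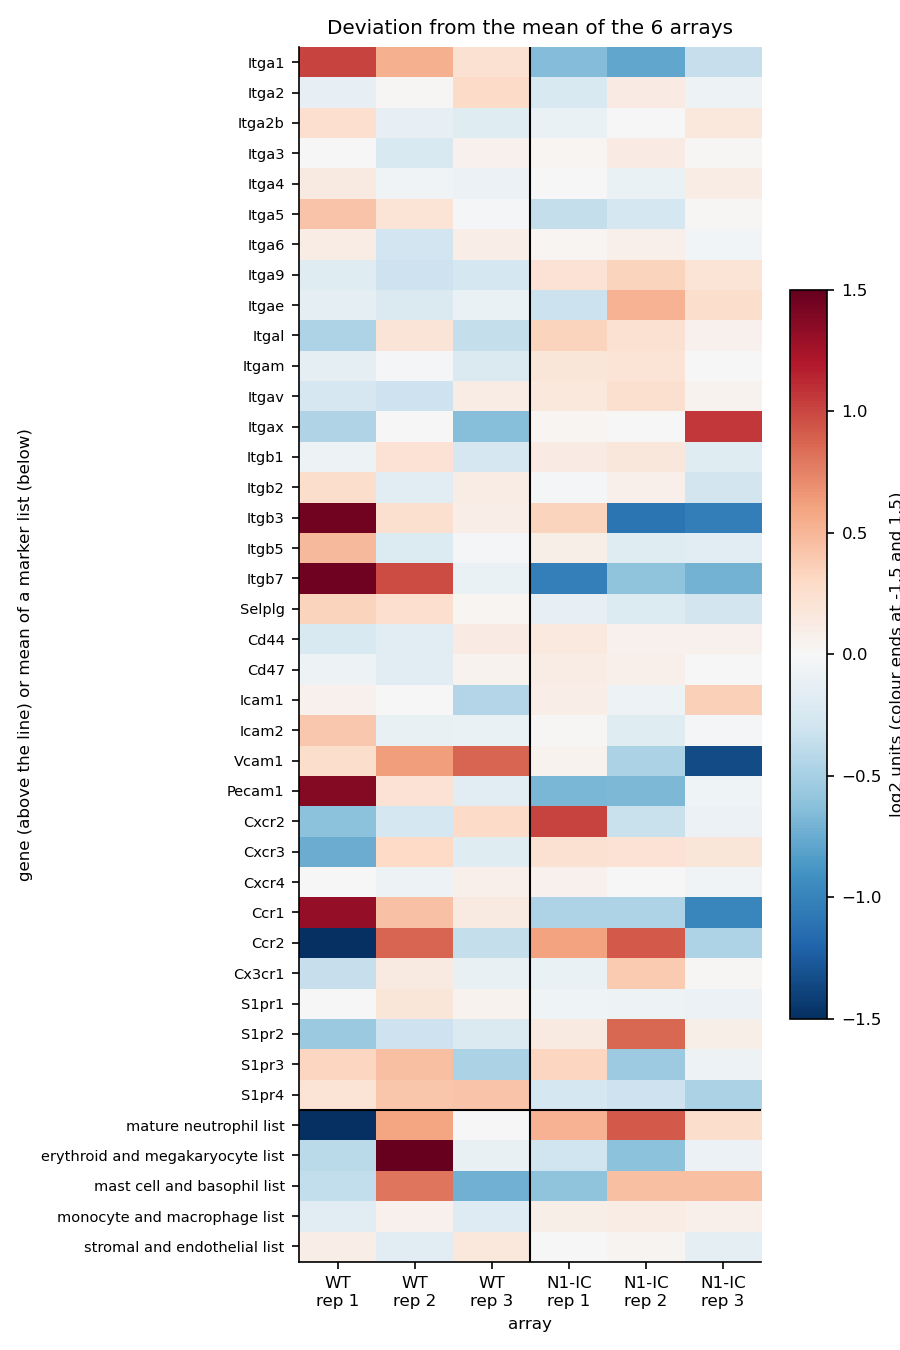
Deviation of each gene, and below the line of 5 marker list means, from its own mean over the 6 arrays in log2 units (red above, blue below, colours end at -1.5 and 1.5). WT replicate 1 is the reddest column for Itgb3, Itgb7, Pecam1 and Ccr1 and the bluest for Ccr2 and the mature neutrophil list.

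The spread within WT differed between genes. WT replicate 1 was the highest of the 6 arrays for 13 of the 35 genes and the lowest for 7, among them Ccr2 and Itgal. The other arrays were the highest for 2 to 8 genes. Itga1, Itgb3, Itgb7, Pecam1, Ccr1 and Selplg were among the genes highest in WT replicate 1. Over all 6 arrays 11 genes spanned more than 1 log2 unit and 6 more than 2. Without WT replicate 1, 1 gene was higher and 6 lower at an unadjusted limma p under 0.05, where 2.97% and 2.75% of all genes were. Without WT replicate 2, the array high in erythroid markers, 5 were higher and 6 lower, against 2.92% and 3.04%. Without WT replicate 3, 4 were higher and 7 lower, against 7.01% and 6.43%.

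**Figure D4:**
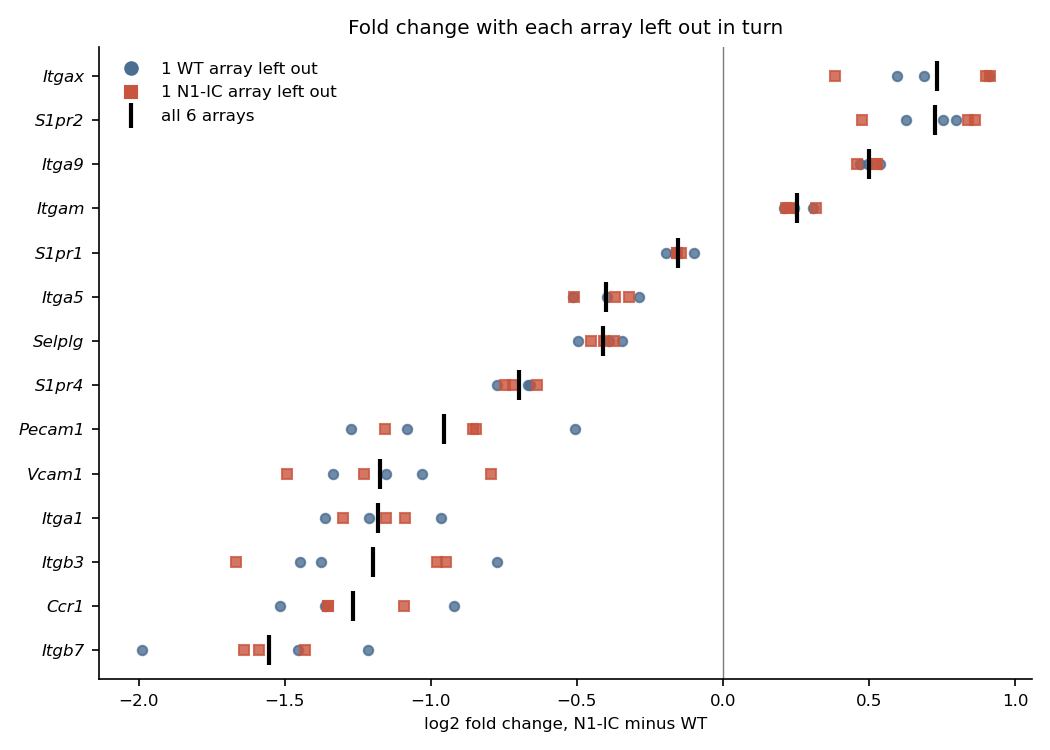
Log2 fold change of the 14 genes given in full with all 6 arrays (black bar) and with 1 WT array (circles) or 1 N1-IC array (squares) left out. No point crosses 0, which for the 11 genes without overlap could not happen. The points of Itgb7, Itgb3, Vcam1, Pecam1 and Ccr1 spread the widest.

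Leaving out each array in turn kept the unadjusted limma p under 0.05 for 6 genes, Itga1, Itga9, Itgb7, Selplg, Ccr1 and S1pr4, against 2.15% of all genes. The sign of the fold change stayed the same without any single array for 26 of the 35 genes and turned for 9. For the 11 genes whose groups did not overlap it could not turn, so only the other 24 were open to a change. Of the 20 genes with several probe sets, 13 had all of them on the same side of 0.

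**Figure D5:**
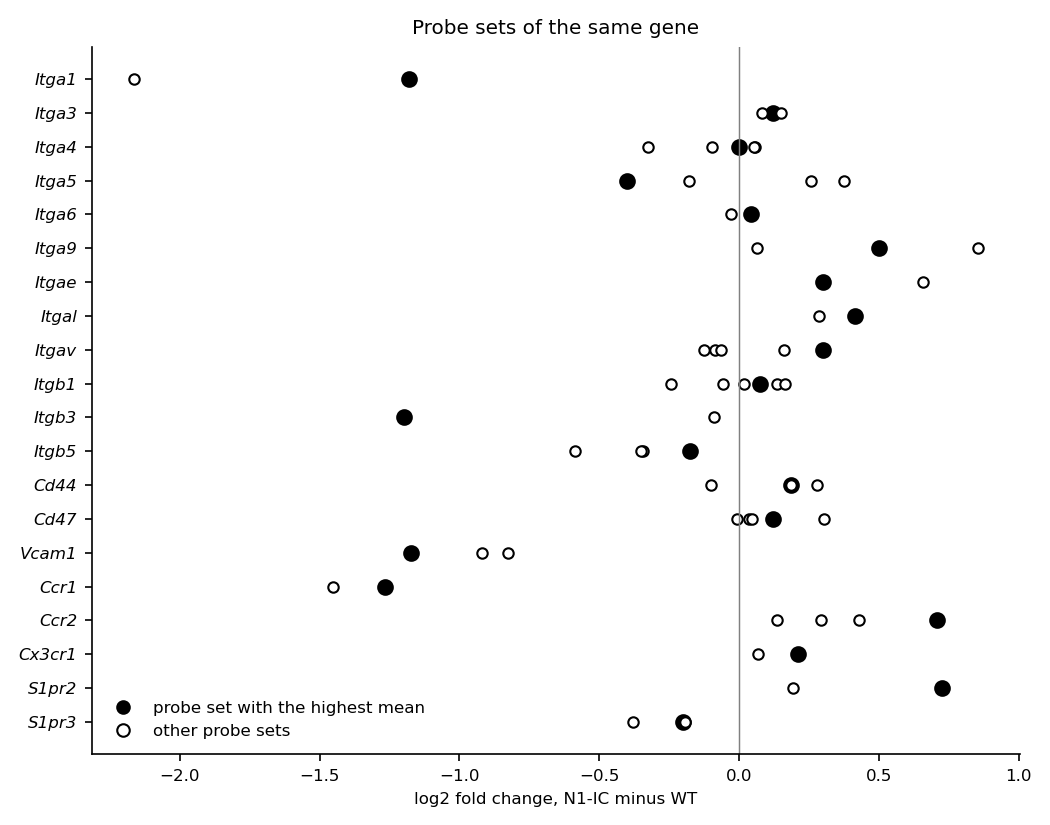
Log2 fold change (N1-IC minus WT) of every probe set of the 20 genes with more than 1, with the probe set of the highest mean filled. Both probe sets of Itga1 and of Ccr1 and all 3 of Vcam1 lie to the left of 0, and those of Itga4, Itga5 and Itgav lie on both sides.

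The other genes of adhesion and homing were taken from 9 lists, of which 140 of 148 genes that are not members were measured. As many had a higher as a lower mean (70 each), 0 passed over all genes (limma adjusted p of 0.618 or more), and at an unadjusted p under 0.05 there were 1 higher (0.714%) and 5 lower (3.57%), against 4.14% and 3.84% of all genes. Their groups did not overlap for 8 higher (5.71%) and 9 lower genes (6.43%), against 8.32% and 6.52% of all genes.

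Among junction and immunoglobulin adhesion molecules 8 of 15 were higher and 7 lower, 2 of the lower with an unadjusted p under 0.05. Alcam, which binds CD6 and itself, lay at 12.15, 12.26 and 12.34 in WT and at 11.24, 11.28 and 11.77 in N1-IC, without overlap. Its log2 fold change was -0.82 ± 0.16 (limma unadjusted p of 0.00208, adjusted p of 0.618). Cd99l2, which helps leukocytes cross vessel walls, had -0.44 ± 0.17 and the sort gate gene Cd34, itself a sialomucin that can bind selectins, -0.72 ± 0.32. Both were without overlap.

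Of 19 genes of integrin activation 11 were higher. Cytip, which regulates LFA-1 through cytohesin, lay at 10.81, 11.33 and 11.36 in WT and at 11.58, 11.94 and 11.63 in N1-IC, without overlap (0.55 ± 0.18, limma adjusted p of 0.618). Vcl, which links integrins to actin, had 0.28 ± 0.12, and Fermt3, the kindlin that activates integrins in blood cells, had 0.32 ± 0.15 with overlapping groups. Among 7 further integrin chains 4 were higher and 3 lower, and Itga8 (-0.49 ± 0.16) lay at 2.45 to 3.35, below the lower quartile. Itgb4 had 0.19 with overlapping groups. Itgb2l had 0.76, and -0.12 without WT replicate 1, where it lay at 5.83 against 8.06 to 8.74 on the other arrays.

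Of 16 chemokines 10 were higher. The myeloid chemokine Ccl6, a ligand of Ccr1, had 11.49, 11.75 and 11.45 in WT and 10.87, 10.90 and 11.29 in N1-IC, without overlap (-0.54 ± 0.15, limma adjusted p of 0.618). Pf4, a platelet chemokine, had -1.48 ± 0.47 with overlapping groups, and Cxcl10, a ligand of Cxcr3, 0.84 ± 0.35 without overlap. Pf4 is itself one of the erythroid and megakaryocyte markers. It was highest in WT replicate 2 (9.09) and had -1.14 without that array. A part of erythroid and megakaryocyte RNA in its difference was not tested. Of 19 further chemotactic receptors 10 were higher, and none had an unadjusted p under 0.05. Fpr2 and C5ar1, receptors of mature myeloid cells, had 2.30 ± 1.02 and 1.28 ± 0.87, and both were lowest in WT replicate 1. Without that array they had 1.14 and 0.28. Fpr2 is itself one of the mature neutrophil markers whose mean was low on that array. A part of neutrophil RNA in either difference was not tested. Ccr9 had 0.27 ± 0.21.

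Of 14 genes listed for sphingosine 1-phosphate metabolism and transport 10 were lower, with a median log2 fold change of -0.03, and none separated the genotypes. The further receptor S1pr5 (-0.0069 ± 0.27) was counted among these 10. The 3 genes of that list with the smallest p were Plpp2 (-0.26 ± 0.15), Asah2 (0.37 ± 0.23) and Sgpp1 (0.21 ± 0.15). Of 26 genes that carry or end chemotactic signals 14 were higher and 12 lower, and the smallest p values were those of Gna12 (-0.44 ± 0.19), Rgs19 (0.23 ± 0.11) and Pik3cg (0.21 ± 0.10). Of 11 selectins and genes of selectin ligand glycosylation 8 were lower, and the galactosyltransferase B4galt1 was higher, at 0.14 ± 0.12. Of 12 adhesion ligands and matrix genes 6 were higher and 6 lower. The 3 with the smallest p, Lama5, Has3 and Lama4, were all higher, at 0.30, 0.29 and 0.15. On all 6 arrays Has3 (2.59 to 3.25) lay below the lower quartile and Lama4 (4.90 to 5.18) below the median.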

How the data were processed

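RNA (5 ng) was amplified with the Ovation system and labelled with biotin for Affymetrix arrays, per the labels' protocols. The authors deposited intensities on a linear scale, and RMA is named in the submitters' processing notes, with its version not given in the sources used here. Intensities ran from 3.60 to 24044, array medians from 49.6 to 51.0, and sorted array values lay within 0.103 log2 units of the mean array, so a difference is one against the rest of the same array. The number of arrays limits the precision. For this text log2 was taken with no offset. Of 45101 probe sets, 34958 had 1 symbol in the platform annotation, 932 several and 9211 none, and 34754 matched RefSeq (GRCm38.p6). The test was limma 3.58.1 under R 4.3.3 (eBayes after lmFit, no trend, no robust prior), with Benjamini-Hochberg adjustment over all 18194 genes and a threshold of 0.05. The fit was tested on simulated data. Standard errors are limma's moderated ones and SDs are over 3 arrays. Groups and replicate numbers came from sample titles. The genes and lists were chosen with earlier results of these data known. A gene was given in full where its groups did not overlap, its unadjusted p was under 0.05 or its fold change was among the 6 largest, and from each further list the 3 genes with the smallest p were named, members of several lists once. Correlations across arrays had been planned as a description and are not given. Alternatives were other priors, array weights, renewed quantile normalization, median centring, an offset of 16, a filter at the median level, other uses of probe sets, a replicate block and each array left out. Start regions were the 250 bases before each start in the RefSeq promoter table.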

Additional observations from a re-analysis of the deposited data

How the results depend on the processing

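Of 305 fold changes of the 35 genes under the settings that kept all arrays, 300 kept their direction, and the lowest limma adjusted p was 0.449, so 0 of the 35 passed in each. Those that turned were Itga4 with array weights (-0.0046), renewed quantile normalization (-0.016) and its probe sets averaged (-0.062), Cxcr4 with renewed quantile normalization (-0.017) and Itga5 with its probe sets averaged (0.014). The count over all genes, 1 with all arrays, was 3 with a mean-variance trend, 2 with array weights, 2 in the brighter 9097 genes, 5 with probe sets of a gene averaged and 0 to 5 with an array left out (5 without WT replicate 2, 0 without WT replicate 3). Among the 35 genes those higher at an unadjusted p under 0.05 numbered 3 with all arrays, 5 with median centring and 1 to 5 with an array left out, where the share of all genes ran from 2.53% (without N1-IC replicate 2) to 7.01% (without WT replicate 3). Those higher without overlap numbered 4, 2 in the brighter 9097 genes, 6 with probe sets averaged and 5 to 8 with an array left out. With all probe sets used they also numbered 6, where a gene counted if any of its probe sets separated the groups. No share of all genes is given for that setting. The share of all genes was 8.32%, then 6.90% in the brighter genes and 7.80% with probe sets averaged. It rose to between 12.4% (without WT replicate 2) and 18.8% (without WT replicate 3) with an array left out, since fewer arrays separate more easily. With median centring 65.2% of all genes with an unadjusted p under 0.05 were higher, against 51.9%, and 45.5% of the members, against 30%. With arrays left out, 14 of 210 fold changes turned sign, in ranges of -0.013 to 0.66 for Cxcr2, -0.038 to 0.038 for Cxcr4, -0.032 to 0.20 for Itgb1, -0.21 to 0.047 for Icam2, -0.055 to 0.068 for Itga4, -0.044 to 0.18 for Itga2b, -0.32 to 0.023 for Itgb5, -0.090 to 0.11 for Itga6 and -0.49 to 0.021 for S1pr3. The cause of these turns was not tested. A replicate block left 0 genes called over all, and 2 members higher and 7 lower at an unadjusted p under 0.05, against 3.02% and 3.37% of all genes. Replicate numbers were not treated as pairs, since deviations of same-numbered samples correlated at 0.0093, 0.061 and -0.11.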
